A study of Mus musculus with 6 samples.

Results

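Promoter peaks are the binding regions of the transcription factors C/EBPα, IRF8 and JUNB that the deposited annotation places at a gene's start, in mouse bone marrow-derived macrophages (BMDMs) without and with IL-4. Every peak whose annotation began with promoter-TSS, the class that HOMER gives to a region at a transcription start site (TSS), was taken from all 6 peak lists, which gave 10243 of 134964 peaks. By list these were 1684 of 24486 C/EBPα peaks in control and 1809 of 24612 after IL-4, 2719 of 37525 and 3856 of 42076 IRF8 peaks, and 110 of 3940 and 65 of 2325 JUNB peaks. The study asked how IL-4, acting through the transcription factor STAT6, alters the macrophage gene program, and mapped these lineage-determining factors by chromatin immunoprecipitation sequencing (ChIP-seq). Wild-type marrow cells from mice aged 8-12 weeks, on a C57BL/6 background per the study's methods, were differentiated for 6 days in L929 supernatant, which carries the growth factor MCSF. Control cells got no IL-4, and treated cells had 1 h of it (20 ng/ml). In both groups the chromatin was double cross-linked (DSG, then formaldehyde) and pulled down using antibody sc-61X (C/EBPα), sc-32528x (IRF8) or sc-46x (JUNB).

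Each factor and condition had 1 sample, so no value below has a replicate, no test between conditions was possible, and all differences are descriptions of single pairs of samples. Intervals are 95% Wilson binomial intervals and cover counting error only. The read depth of the samples is unknown. The labels name 2 library kits without tying them to samples, so depth, kit and IL-4 cannot be told apart. The labelled cell type was checked at the promoters of marker genes fixed as a list. Of 12 macrophage markers, 9 had a promoter peak in at least 1 list, beside 22.0% of all 21883 protein-coding genes, among them Cd68, Adgre1, Msr1 and Tyrobp. None of the 7 T cell, 6 B cell, 5 erythroid and 5 fibroblast markers had one, and of 7 neutrophil granule genes 2 did, S100a8 and Camp.

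A promoter is the stretch beside the TSS where the general transcription machinery assembles, and many mammalian promoters lie in CpG islands, which are rich in GC boxes. Macrophage lineage factors are best known for binding enhancers far from genes. C/EBPα is a leucine zipper protein that binds palindromes of the form TTGCNNAA. IRF8 binds poorly on its own and pairs with PU.1 at composite ETS-IRF elements (EICE), or with other IRF proteins at interferon-stimulated response elements (ISRE). JUNB is a subunit of AP-1, which binds TGANTCA. IL-4 phosphorylates STAT6, which binds TTC and GAA parted by 4 bases.

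Stretches of 7 promoter peaks are shown because they hold elements that the shares below count, with AP-1, C/EBP, ISRE, EICE and STAT6 matches in capitals. GC boxes and CCAAT boxes, which are also counted below, were left in lower case. Each is the longest run without an annotated exon in the 200 bp around a peak centre, on the plus strand of the GRCm38 assembly from RefSeq, which is mm10. Matches were searched on both strands, so some appear as the reverse complement. Among the peaks named by rule, these were picked after their values were seen. Snx27 carried a C/EBPα peak among the 4 with the highest control score and holds TTGCGCAA, which stands 1 base from an EICE match. Gbp7 had the IRF8 peak with the second highest control score and holds an ISRE match. Pdcd1lg2 had the highest IRF8 peak found only after IL-4 and holds a STAT6 match, and Edn1, where the IRF8 score was much higher after IL-4, holds a STAT6 match followed by an ISRE match. Cd68 was bound by all 3 factors in both conditions and holds 2 AP-1 matches and 1 C/EBP match. Enthd1 and Ccdc180 had JUNB peaks in a single condition, control and IL-4 in that order, each with 2 AP-1 matches.
Snx27, chr3:94583040-94583239: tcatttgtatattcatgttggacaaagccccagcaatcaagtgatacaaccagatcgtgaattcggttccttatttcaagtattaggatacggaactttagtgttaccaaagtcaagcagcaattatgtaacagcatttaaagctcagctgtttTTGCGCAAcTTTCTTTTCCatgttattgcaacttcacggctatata
Gbp7, chr3:142530247-142530341: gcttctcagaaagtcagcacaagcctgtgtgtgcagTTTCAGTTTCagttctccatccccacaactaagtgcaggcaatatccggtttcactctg
Pdcd1lg2, chr19:29410799-29410918: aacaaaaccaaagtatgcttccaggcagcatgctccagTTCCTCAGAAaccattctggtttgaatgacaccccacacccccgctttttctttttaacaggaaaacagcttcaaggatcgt
Edn1, chr13:42301247-42301446: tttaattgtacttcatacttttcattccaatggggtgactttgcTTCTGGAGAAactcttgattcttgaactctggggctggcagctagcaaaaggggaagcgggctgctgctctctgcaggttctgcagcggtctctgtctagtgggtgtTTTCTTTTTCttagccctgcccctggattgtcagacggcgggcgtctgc
Cd68, chr11:69666173-69666372: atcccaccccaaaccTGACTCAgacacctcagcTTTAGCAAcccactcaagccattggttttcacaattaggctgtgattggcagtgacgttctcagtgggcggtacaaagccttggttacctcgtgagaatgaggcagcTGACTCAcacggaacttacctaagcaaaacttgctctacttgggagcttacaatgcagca
Enthd1, chr15:80561307-80561506: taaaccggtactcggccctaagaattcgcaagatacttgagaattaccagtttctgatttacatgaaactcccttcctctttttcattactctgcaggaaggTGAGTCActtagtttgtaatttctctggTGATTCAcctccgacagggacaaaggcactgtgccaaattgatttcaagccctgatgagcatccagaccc
Ccdc180, chr4:45889720-45889919: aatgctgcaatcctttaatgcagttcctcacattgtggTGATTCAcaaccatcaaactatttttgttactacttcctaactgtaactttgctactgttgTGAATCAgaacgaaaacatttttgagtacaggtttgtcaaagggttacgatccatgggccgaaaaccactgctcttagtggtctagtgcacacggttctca

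Promoters took a small part of each list and mostly held its weaker peaks. For C/EBPα they made up 6.88% (6.57 to 7.20) of the control list and 7.35% (7.03 to 7.68) of the IL-4 list. For IRF8 the shares were 7.25% (6.99 to 7.51) and 9.16% (8.89 to 9.44), the only pair of the 3 whose intervals do not meet. JUNB was lowest, with 2.79% (2.32 to 3.35) and 2.80% (2.20 to 3.55). The deposited Peak Score, which has no stated unit and is higher for stronger peaks, had a control median at C/EBPα promoter peaks of 9.26, against 11.2 at other C/EBPα peaks. The IRF8 medians were 7.34 and 10.5, and those of JUNB 6.64 and 7.88. After IL-4 the promoter medians were 9.44 (C/EBPα), 6.77 (IRF8) and 5.25 (JUNB), against 11.4, 10.2 and 6.26 at the other peaks. The strongest promoter peaks were still among the strong peaks of their lists, with maxima of 272.41 (IRF8) and 39.26 (JUNB).

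Peaks under a score of 5 were at promoters more often than stronger ones in every list. Among IRF8 peaks after IL-4 the promoter share was 12.9% (12.2 to 13.5) under 5, 11.6% (11 to 12.2) from 5 to 10, 6.87% (6.36 to 7.41) from 10 to 20 and 5.43% (4.81 to 6.13) at 50 or more. The same bins in IRF8 control held 11.3%, 8.16% (7.68 to 8.68), 5.84% (5.36 to 6.37) and 4.57% (3.97 to 5.25). The gap between the IRF8 conditions was widest from 5 to 10. In each separate bin from 10 up, the intervals of the conditions met. Among all IRF8 peaks scoring 10 or more the intervals did not meet. The promoter share there was 5.21% (4.91 to 5.54) in control and 6.04% (5.72 to 6.37) after IL-4. C/EBPα ran from 9.47% under 5 to 5.71% at 50 or more in control, and from 10.1% to 6.22% after IL-4. No JUNB peak at 50 or more was at a promoter, of 32 in control and 22 after IL-4.

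**Figure D1:**
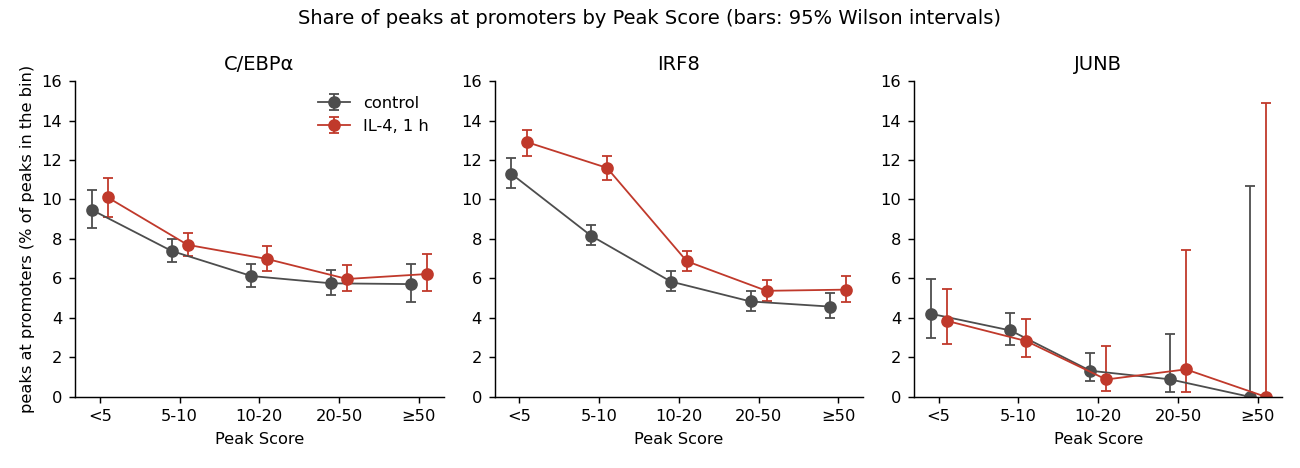
Share of the peaks of each list that lie at promoters (vertical axis, percent of the peaks in a bin) by Peak Score (horizontal axis, bins), for control (grey) and 1 h of IL-4 (red), with 95% Wilson intervals as bars. In IRF8 the IL-4 line lies above the control line in every bin, at 11.6% against 8.16% from 5 to 10.

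Most promoter peaks lay upstream of the start. In control 82.4% of C/EBPα, 79.6% of IRF8 and 93.6% of JUNB promoter peaks had their centre upstream, at a median of -179 bp, -149 bp and -196 bp. About 1 in 3 lay within 100 bp of the TSS, 33.1%, 35.6% and 33.6% in the same order, and after IL-4 31.5%, 38.2% and 32.3%. The IRF8 median moved to -129 bp after IL-4, and that of C/EBPα to -198 bp. Protein-coding genes received between 91.8% (JUNB control) and 94.4% (IRF8 control) of the promoter peaks.

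IRF8 gained far more promoter peaks than it lost. Of 3856 IRF8 promoter peaks after IL-4, 1851 overlapped no control IRF8 peak by a single base, 48.0% (46.4 to 49.6), against 30.4% over the whole IL-4 list and 28.7% (28.2 to 29.1) of the peaks outside promoters. In the other direction 661 of 2719 control promoter peaks had no IL-4 peak, 24.3% (22.7 to 26.0), beside 21.4% over the whole control list and 21.2% outside promoters. The new promoter peaks were weak, with a median score of 4.99 against 11.8 for the IL-4 promoter peaks shared with control, and 120 of the 1851 scored 10 or more.

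The gap between promoters and other regions was also present within score bins under 20. After IL-4, IRF8 promoter peaks scoring under 5 were also present in control in 21.4% (19.3 to 23.8) of cases, against 33.5% (32.5 to 34.5) outside promoters. From 5 to 10 the shares were 45.1% (42.5 to 47.8) and 60.4% (59.4 to 61.3), and from 10 to 20 they were 81.3% (78.0 to 84.1) and 87.6% (86.9 to 88.3). At 50 or more all 246 promoter peaks were shared. Control promoter peaks stood the other way, since 52.3% (48.8 to 55.8) of those under 5 had an IL-4 peak, against 45.7% (44.5 to 47.0) outside promoters.

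C/EBPα promoter peaks turned over less and JUNB promoter peaks more. For C/EBPα 377 of 1684 control promoter peaks were absent after IL-4, 22.4% (20.5 to 24.4), beside 21.4% over its whole control list, and 503 of 1809 were new, 27.8% (25.8 to 29.9), beside 22.0% over its IL-4 list and 21.5% (21 to 22) outside promoters. For JUNB 82 of 110 control promoter peaks were absent after IL-4, 74.5% (65.7 to 81.8), beside 64.2% over the list. Of its 65 IL-4 promoter peaks 37 were new, 56.9% (44.8 to 68.2), beside 39.2% over the list and 38.7% (36.7 to 40.7) outside promoters. Shared peaks stayed in the promoter class with few exceptions, in 1283 of 1307 C/EBPα, 1968 of 2058 IRF8 and 27 of 28 JUNB control peaks.

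**Figure D2:**
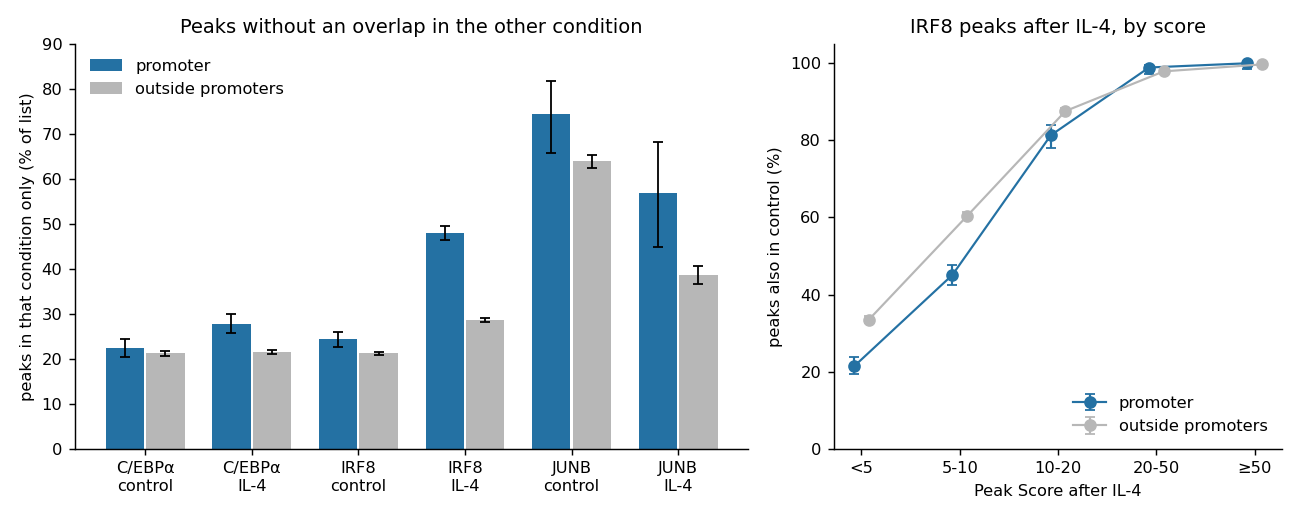
Left, share of each list's peaks without an overlap in the other condition of the same factor (vertical axis, percent), at promoters (blue) and outside them (grey), with 95% Wilson intervals, where IRF8 after IL-4 stands at 48.0% against 28.7%. Right, share of the IRF8 peaks after IL-4 that were also present in control (vertical axis, percent) by their Peak Score, where promoter peaks lie lower in the bins under 20 and both lines reach nearly all peaks at 20 and over.

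At promoter peaks present in both conditions, IRF8 scores were higher after IL-4 and C/EBPα scores nearly level. Over 2018 one-to-one pairs of IRF8 peaks the control score had a median of 9.43 and the IL-4 score one of 11.9. The median log2 ratio of IL-4 to control was 0.28 (interval of the median 0.25 to 0.32, SD between peaks 0.77). Outside promoters it was 0.07 (0.06 to 0.08). A score at least 2-fold higher after IL-4 was seen at 315 of the promoter pairs, 15.6%, beside 11.3% of all IRF8 pairs, and at least 2-fold lower at 95, 4.71%, beside 7.96%. Over 1298 C/EBPα pairs the median log2 ratio was 0.08 (0.04 to 0.13, SD 0.67), against -0.01 outside promoters. Here 108 pairs, 8.32%, were at least 2-fold higher, beside 7.72% of all C/EBPα pairs, and 58, 4.47%, at least 2-fold lower, beside 6.56%. The 27 JUNB pairs had a median log2 ratio of -0.29 with an interval that holds 0 (-0.66 to 0.28), and outside promoters -0.55 (-0.60 to -0.50). Of these pairs 2 were at least 2-fold higher, 7.41%, beside 2.99% of all JUNB pairs, and 2 were at least 2-fold lower, 7.41%, beside 29.9%.

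**Figure D3:**
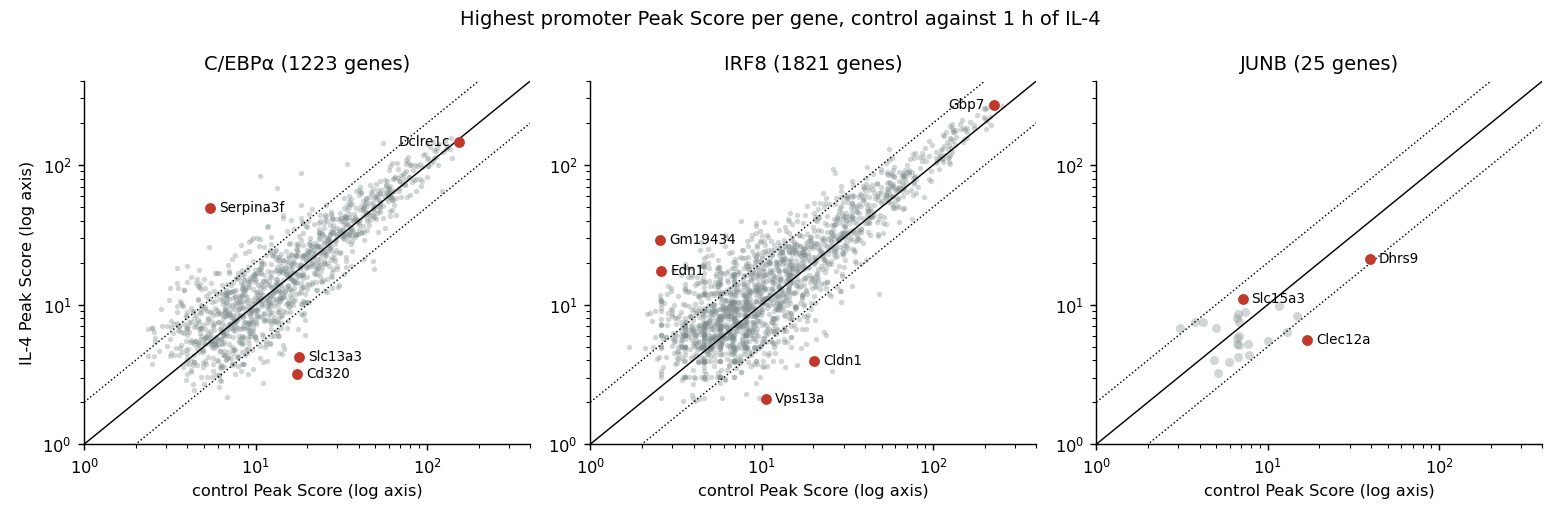
Highest promoter Peak Score of each gene in control (horizontal, log axis) against 1 h of IL-4 (vertical, log axis) for genes whose highest promoter peaks in the 2 conditions overlap, with equality as a solid line and 2-fold changes dotted. The IRF8 points lie mostly above equality, with Edn1 and Gm19434 farthest, and Dhrs9 stands apart as the strongest JUNB promoter.

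Strong shared C/EBPα promoter peaks differed by less than 2-fold between the conditions at Dclre1c, Galnt9 and Snx27. Dclre1c, the DNA repair nuclease Artemis, scored 152.97 in control and 146.79 after IL-4, and Galnt9, a sugar transferase of the Golgi, 139.85 and 111.41. Snx27, a sorting protein of endosomes, scored 137.88 and 157.42 and was bound by the other factors too. The windows of all 3 hold a C/EBP match.

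The C/EBPα promoter peaks seen only after IL-4 were led by Slc7a2, an arginine transporter of alternatively activated macrophages, at 37.43. Gm6116 followed at 21.52, Cass4, an adhesion scaffold, at 19.63, and Itgb8, an integrin subunit, at 19.03. The windows of the latter 3 hold a STAT6 match, and Slc7a2 holds none of the elements searched. Control-only peaks were lower, at 17.37 for Arhgef37, 17.12 for Mapk14, the kinase p38α, 15.01 for the nuclear import receptor Tnpo1 and 14.32 for Hmgn2. Among one-to-one pairs of shared peaks, the largest ratio was at Serpina3f, a serine protease inhibitor, from 5.4 to 49.17. Arih1 followed, from 2.3 to 19.68, and then Vps54, from 3.47 to 18.2. In the other direction stood the vitamin carrier receptor Cd320, from 17.38 to 3.17, the transporter Slc13a3, from 17.81 to 4.23, and the transcription factor Mef2a, from 11 to 2.72. Counted by the highest promoter peak of a gene instead, Atp6v0a1 went from 10.61 up to 84.14.

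The 4 strongest shared IRF8 promoter peaks included those of 3 interferon-regulated genes. The nonclassical MHC class I genes H2-Q7 and H2-Q5 scored 251.21 and 216.99 in control and 264.89 and 272.41 after IL-4. Gbp7, a guanylate-binding protein, scored 226.76 and 267.89, and the zinc finger gene Zfp758 scored 222.42 and 258.78. The window of Gbp7 holds an ISRE match and that of Zfp758 an EICE match. Those of H2-Q7 and H2-Q5 hold none of the elements searched. H2-Q, Gbp and Zfp genes have close copies in the genome, so the placement of their reads is uncertain.

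After IL-4 the strongest IRF8 promoter peak without a control counterpart was at Pdcd1lg2, which encodes PD-L2, a T cell inhibitory ligand and a known IL-4 target, at 36.66. Mon1b scored 22.15, Slain2 20.84 and Zbed6 20.33, and Slain2 had a C/EBPα peak in both conditions. Control-only IRF8 peaks were led by Zfp827 at 26.44, Fyttd1 at 20.26, Zfp541 at 18.62 and Arhgap4 at 17.84. Edn1, the precursor of the vasoconstrictor endothelin, had an IRF8 score of 2.59 in control and 17.41 after IL-4. Gm19434 went from 2.56 to 28.84 and Tmem26 from 4.4 to 27.98. Lower after IL-4 were the tight junction gene Cldn1, at 20.14 and then 3.97, the lipid transfer gene Vps13a, at 10.52 and then 2.09, and Echdc3, at 16 and then 3.69.

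JUNB had few strong promoters. Its 4 shared promoter peaks with the highest control score were all lower after IL-4, but picking by control score favours that direction. Over all 27 JUNB promoter pairs the median log2 ratio was -0.29, with an interval that holds 0 (-0.66 to 0.28). Dhrs9, a retinol dehydrogenase, scored 39.26 in control and 21.19 after IL-4. Clec12a, an inhibitory lectin receptor, scored 16.89 and 5.58, Arhgap22, a regulator of Rac, 14.74 and 8.25, and Morrbid, a long noncoding RNA of myeloid cells, 12.86 and 6.36. Hgf, the hepatocyte growth factor, had the highest control-only JUNB peak at 23.25, ahead of Rmc1 at 18.03, Klra2 at 16.97 and Enthd1 at 15.68. The highest IL-4-only JUNB peaks were at D16Ertd472e at 11.04, Ccdc180 at 10.77, Serpinb8 at 7.8 and Sap30bp at 7.18. The windows of Hgf, D16Ertd472e and Arhgap22 hold none of the elements searched, and those of the other JUNB peaks in these groups hold an AP-1 match. Among the shared JUNB peaks that scored 10 or more in at least 1 condition, Slc15a3, a peptide transporter of endolysosomes, was the one with a higher score after IL-4, 10.99 against 7.12.

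Promoter peaks of the 3 factors often named the same gene. In control 782 of 1618 genes with a C/EBPα promoter peak also had an IRF8 one, 48.3% (45.9 to 50.8), and after IL-4 948 of 1741, 54.5% (52.1 to 56.8). With lists of equal number the shares were 48.3% (45.9 to 50.8) and 49.3% (47 to 51.7), and with peaks scoring 10 or more 30.5% (27.4 to 33.8) and 32.8% (29.7 to 36), so under both settings the intervals met. Of all 21883 protein-coding genes 11.1% had an IRF8 promoter peak in control and 15.7% after IL-4, so IRF8 genes were more numerous as well. Counted from the IRF8 side the order was reversed, since 30.3% (28.6 to 32.1) of 2578 IRF8 genes had C/EBPα in control and 25.9% (24.5 to 27.4) of 3654 after IL-4. JUNB was seldom alone. In control 55 of its 109 genes, 50.5% (41.2 to 59.7), had both other factors, and after IL-4 40 of 64, 62.5% (50.3 to 73.3), while 15 and 9 had neither. Such sharing was not particular to promoters. By peak overlap in control, JUNB promoter peaks met C/EBPα in 61.8%, against 72.6% outside promoters, and IRF8 in 67.3%, against 81.2%. C/EBPα promoter peaks met IRF8 in 44.5%, against 59.1% outside.

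Genes with IRF8 alone made up most of the difference between the conditions. They numbered 1775 of 3429 genes with any promoter peak in control, 51.8%, and 2697 of 4456 after IL-4, 60.5%. C/EBPα alone was found at 818 and 787 genes, and C/EBPα with IRF8 but without JUNB at 727 and 908. New IRF8 promoter peaks overlapped a C/EBPα peak of the IL-4 sample less often, in 13.6% (12.1 to 15.2) of 1851, than shared ones did, in 32.1% (30.1 to 34.1) of 2005. They met JUNB in 3 cases, 0.162%, against 42 of the shared ones. By gene, a factor was counted as gained or lost only where the promoter peak of one condition overlapped no peak of that factor in the other, since an overlapping peak can be annotated to an intron, an exon or a neighbouring gene. On this count IRF8 was present in both conditions at 2139 genes, lost at 520 and gained at 1622. Of the 627 genes annotated with an IRF8 promoter peak in control alone, 107 had such an overlap. C/EBPα was present in both at 1317, lost at 327 and gained at 449, and JUNB at 28, 82 and 37.

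Where C/EBPα and IRF8 both came or went at a promoter, every combination of directions was seen. Both were gained at 75 genes and both lost at 20. C/EBPα was gained and IRF8 lost at 26, and C/EBPα lost and IRF8 gained at 45. Over all genes IRF8 was gained at 1622 and lost at 520, and C/EBPα gained at 449 and lost at 327. IRF8 gains thus outnumbered its losses in general, whichever way C/EBPα went, and a link between the directions was not tested. JUNB and C/EBPα were both gained at 4 genes and both lost at 5, and C/EBPα was gained where JUNB was lost at 10. Over all genes JUNB was gained at 37 and lost at 82.

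At 15 of 5124 genes with any promoter peak, all 3 factors were present in both conditions, and at each of the 15 the 6 peaks shared a base. Their centres spread over a median of 147.0 bp. Ranked by the lowest of their 6 score percentiles, the first 8 were Dhrs9, Arhgap22, Slc15a3, Clec12a, Cd68, Lair1, I830077J02Rik and Scimp. Cd68, the macrophage glycoprotein of lysosomes, had C/EBPα scores of 33.26 in control and 42.91 with IL-4. Its IRF8 scores were 87.77 and 114.97, and its JUNB scores 9.98 and 5.46. At Clec12a C/EBPα scored 128.68 and 130.34 and IRF8 126.6 and 131.96, so the lower JUNB score there had no counterpart in the other factors. Lair1, a collagen-binding inhibitory receptor, scored 33.94 and 41.45 (C/EBPα), 40.73 and 52.3 (IRF8), and 6.68 and 8.54 (JUNB). Scimp, an adaptor of Toll-like receptor signalling, scored 32.62 and 30.88, 13.14 and 23.8, and 6.64 and 5.26 in the same order. Over the 15 genes the IRF8 score was higher after IL-4 at 12 and the C/EBPα score at 10, and the JUNB score was lower at 11. Over all genes with the same promoter peak in both conditions the score was higher after IL-4 at 66.7% for IRF8 and 57% for C/EBPα, and lower at 16 of 25 for JUNB.

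The sequence of the new IRF8 promoter peaks differed from that of the shared ones. In the 200 bp around the peak centre their median GC content was 58.5% and their CpG density, observed over expected, 0.741, against 52.5% and 0.535 at shared peaks of the IL-4 list, and 54.0% and 0.608 at control-only promoter peaks. Under a score of 10, new IRF8 promoter peaks had 58.5% and 0.741 and shared ones 54.0% and 0.642, a narrower gap. At 10 or more the values were 54.8% and 0.735 against 51.0% and 0.444. Windows of the same length at all 93472 annotated starts of protein-coding genes had 57% and 0.503. A GC box (GGGCGG) stood in 37.3% of the new IRF8 promoter peaks, 23.0% of the shared ones and 32.5% of all start windows. Elements of IRF8 itself were scarcer in the new than in the shared peaks, and they were also scarce in the control-only ones. An ISRE, GAAA and GAAA parted by 2 bases, stood in 3.03% of the new and 10.6% of the shared peaks, beside 2.12% of start windows. An EICE, GGAA and GAAA parted by 2 bases, stood in 3.67% and 11%, beside 1.62%. Control-only IRF8 promoter peaks held an ISRE in 3.78% and an EICE in 2.42%, so the scarcity was not particular to the new peaks. In new IRF8 peaks outside promoters the shares were 7.69% and 8.34%. The part of GC content, depth or kit in the gain was not tested.

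C/EBPα showed no such difference in base composition. Its new promoter peaks had 50% GC and a CpG density of 0.491, against 51.0% and 0.483 at shared ones, and a GC box in 16.3% against 20.7%. A C/EBP match was in 18.3% of the new and 33.2% of the shared promoter peaks of the IL-4 list, beside 5.65% of start windows. AP-1 matches stood in 50% of JUNB promoter peaks in control and 38.5% after IL-4, beside 4.10% of start windows. Elements followed the score. When the control promoter peaks of a factor were cut into 4 equal parts by score, a C/EBP match was in 49.4% of the top part and 21.1% of the bottom part for C/EBPα. An ISRE was in 21.1% and 3.68% of those of IRF8, and an AP-1 match in 77.8% and 28.6% of those of JUNB. Some letters can serve 2 elements at once, as ISRE and EICE overlap in GAAA, so the shares do not add up.

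For C/EBPα and IRF8, STAT6 matches were rarer in new promoter peaks than in new peaks elsewhere. Among C/EBPα peaks found only after IL-4, 9.15% of those at promoters held TTC and GAA parted by 4 bases, against 21.2% outside promoters, while shared peaks held 5.97% and 7.55%. For IRF8 the new peaks had 5.19% at promoters and 13.0% outside, and the shared ones 5.49% and 7.18%. All start windows had 4.20%. The gap was wider among strong peaks. With a score of 10 or more, 7 of 52 new C/EBPα promoter peaks held a match, 13.5% (6.68 to 25.3), against 44.3% (40.8 to 47.9) outside promoters, and 15 of 120 new IRF8 promoter peaks, 12.5% (7.72 to 19.6), against 31.9% (29.3 to 34.6). Below a score of 10 the new IRF8 promoter peaks had 4.68% (3.78 to 5.78), which holds the share of all start windows. Promoter windows are richer in GC than windows elsewhere, whose median was 46.0% at new IRF8 peaks, and the part of this in the shares was not tested. For JUNB 16.2% of its 37 new promoter peaks held a match, against 17.5% of its new peaks outside promoters. Under a score of 10 it was 6 of 35, 17.1% (8.10 to 32.7), against 17.1% (14.7 to 19.8) outside. At 10 or more it was 0 of 2, against 23.9% (13.9 to 37.9). These JUNB promoter peaks are too few to tell whether a gap was present.

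**Figure D4:**
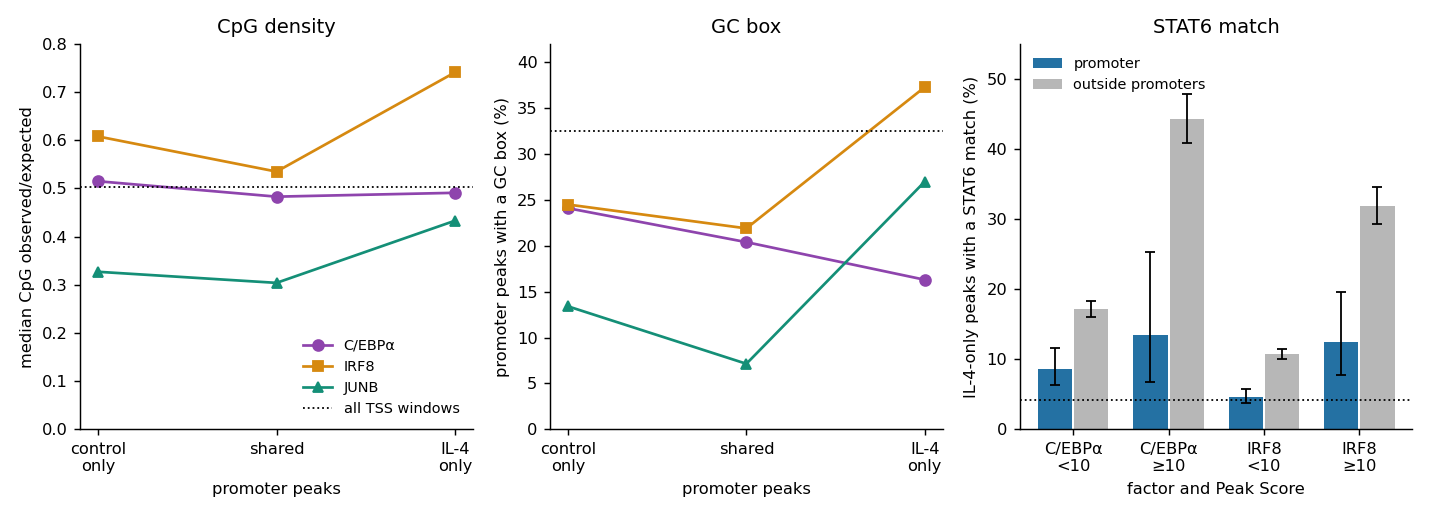
Left and centre, median CpG observed over expected and share of promoter peaks with a GC box (percent) in control-only, shared (control list) and IL-4-only promoter peaks of C/EBPα (circles), IRF8 (squares) and JUNB (triangles), with all start windows dotted. Right, share of IL-4-only peaks with a STAT6 match at promoters (blue) and outside (grey) by factor and Peak Score, with 95% Wilson intervals, where each grey bar of C/EBPα and IRF8 is above its blue neighbour.

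Of the other elements searched, CCAAT boxes stood in 25.7% of C/EBPα, 21.4% of IRF8 and 24.5% of JUNB promoter peaks in control, near the 23.7% of start windows. The ETS element CCGGAAGT was in 8.05% of the new and 4.54% of the shared IRF8 promoter peaks after IL-4, beside 3.53%. The PU.1 form GAGGAAGT was in 3.84% and 10.6%, beside 1.95%, and in 4.69% of the control-only IRF8 promoter peaks. NRF1 matches were in 4.75% and 2.54%, beside 3.75%, and the cyclic AMP element TGACGTCA in 2.59% and 1.25%, beside 1.43%. STAT matches with 3 bases between TTC and GAA were in 5.89% and 7.43%, beside 4.86%.

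IRF8 occupied most interferon response promoters in both conditions. Of 34 listed interferon genes 27 had an IRF8 promoter peak in control, 79.4%, and 25 after IL-4, 73.5%, beside 11.1% and 15.7% of all protein-coding genes. None was gained and none lost. Eif2ak2, which encodes the kinase PKR, had a control peak of 17.17 that overlapped an IL-4 peak of 7.91 annotated to an intron, and the peak of Ifitm3, at 12.3, overlapped one of 19.23 annotated to an exon, both named after their values were seen. At 24 of the 25 genes annotated in both, the highest peaks of the conditions overlapped, and 19 of these 24 had a higher score after IL-4, 79.2%, beside 66.7% of all 1821 such IRF8 genes. The median log2 ratio was 0.30, beside 0.28. Ifit3, an antiviral effector, scored 108.67 and 109.75 for IRF8. Zbp1, a sensor of Z-form nucleic acids, scored 55.36 and 109.07, with C/EBPα at 20.42 and 44.27. Cmpk2 scored 53.07 and 103.34, and Isg20, an exonuclease, 56.71 and 70.74, with C/EBPα at 34.97 and 42.29.

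In antigen presentation 13 of 22 genes had an IRF8 promoter peak in control, 59.1%, and 10 after IL-4, 45.5%, beside 11.1% and 15.7% of all protein-coding genes. Of the 10, 9 scored higher after IL-4, beside 66.7% of all IRF8 genes. By overlap 1 was lost and none gained, beside 493 lost and 1524 gained over all protein-coding genes. The one lost was Psmb8, an immunoproteasome subunit, at 4.74 in control, named after its value was seen. H2-D1, a classical MHC class I gene, scored 129.64 and 185.65, and Cd40 53.59 and 86.06. Ciita, the master regulator of MHC class II, scored 55.79 and 58.82 for IRF8. The IRF8 peak of Psme1, a proteasome activator subunit, was at 36.44 in control and overlapped an IL-4 peak of 54.33 annotated to an intron, while its C/EBPα peak was at 8.48 and 8.11. That of Tap1, a subunit of the peptide transporter, was at 12.73 and overlapped an IL-4 peak of 32.55 annotated to a neighbouring promoter.

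Myeloid transcription factors had more IRF8 promoters after IL-4, with intervals that meet. Of 28 listed genes 8 had IRF8 at the promoter in control, 28.6% (15.3 to 47.1). After IL-4 17 did, 60.7% (42.4 to 76.4). The shares of all protein-coding genes were 11.1% and 15.7%. By overlap 9 of the 28 were gained and none lost, beside 1524 gained and 493 lost over all 21883 protein-coding genes. The 7 whose peaks overlapped all scored higher after IL-4, at a median log2 ratio of 0.64. Tfec, a relative of Mitf that IL-4 induces, scored 4.89 and 18.26 for IRF8 and 55.47 and 144.11 for C/EBPα. Irf5, a driver of inflammatory cytokines, scored 103.32 and 112.53. Runx1 scored 9.78 and 33.79, with C/EBPα at 14.13 and 8.33, and Cebpg 11.05 and 20.06, with C/EBPα at 22.63 and 14.5. The gained peaks were weak, from 2.7 at Spi1, which encodes PU.1, to 8.24 at Runx2, so none reached a score of 10. They included Cebpb at 5.5, Irf1 at 4.9 and Maf at 7.47. All of these were named after their values were seen. The list was not recomputed with a minimum score of 10. C/EBPα scored lower after IL-4 at 5 of the 6 genes of this list with a peak in both, beside 526 of all 1223 such genes.

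The IL-4 response list had IRF8 at 15 of 30 promoters in each condition, 50%, beside 11.1% and 15.7% of all protein-coding genes. By overlap 2 were gained and 2 lost, beside 1524 gained and 493 lost over all protein-coding genes. Arg1, the arginase that marks alternative activation, scored 97.66 and 91.02 for IRF8, had a C/EBPα peak only after IL-4 at 6.6 and a JUNB peak only in control at 6.87. Clec7a, the receptor Dectin-1, scored 56.98 and 88.03 for IRF8, with C/EBPα at 10.01 and 5.53, and the chemokine gene Ccl2 22.84 and 23.34, with C/EBPα at 7.08 in control alone. Chosen after its values were seen, Irf4 had IRF8 at 10.35 and C/EBPα at 4.22 in control alone.

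Toll-like receptor and NF-κB genes had IRF8 at 17 of 34 promoters in control, 50%, and 21 after IL-4, 61.8%, beside 11.1% and 15.7% of all protein-coding genes. By overlap 4 were gained and none lost, beside 1524 gained and 493 lost over all protein-coding genes. C/EBPα was at 12 in each condition, 35.3%, beside 6.96% and 7.40% of all protein-coding genes. Tlr4, the lipopolysaccharide receptor, scored 180.09 and 229.63 for IRF8 and 23.08 and 18.79 for C/EBPα. Tlr8 had C/EBPα at 58.1 and 77.2. Tnfaip3, which encodes the NF-κB inhibitor A20, was higher for both, at 16 and 39.53 for IRF8 and 14.53 and 41.66 for C/EBPα. At Tnf IRF8 scored 8.32 and 26.47, and C/EBPα was present only after IL-4 at 7.98. Of the 12 repressed genes that the study's text names, 5 had IRF8 in control, 41.7%, and 6 after IL-4, 50%, and 5 had C/EBPα in each, 41.7%. The shares of all protein-coding genes were the same as above. The study chose that list on these cells, so its counts are not independent evidence. Il1b scored 12.95 and 12.7 for IRF8 and 42.25 and 47.44 for C/EBPα, and Nlrp3 29.0 and 38.55 and 27.42 and 26.05. Fcgr1, an activating Fc receptor, had a C/EBPα promoter peak of 20.16 in control that overlapped an IL-4 peak of 20.25 in an intron, and IRF8 scores of 14.21 and 40.88.

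The remaining lists are read against the same shares of all protein-coding genes, 11.1% and 15.7% for IRF8, with 1524 gained and 493 lost, and 6.96% and 7.40% for C/EBPα. Of 86 ribosomal protein genes 26 had IRF8 in control, 30.2%, and 30 after IL-4, 34.9%, with 13 gained and 6 lost by overlap. Rpl10a was the strongest, at 41.82 and 70.01 for IRF8 and 100.64 and 98.52 for C/EBPα. Complex I genes had IRF8 at 10 and 9 of 39, and histone genes at 12 and 18 of 67, with 7 gained and 1 lost. Histone and ribosomal protein genes have many close copies, so their read placement is uncertain. Of 30 lysosome genes 12 and then 10 had IRF8 and 7 and then 5 had C/EBPα, among them Ctsz at 43.56 and 42.32 for IRF8 and 28.45 and 33.04 for C/EBPα. AP-1 family genes had IRF8 at 4 and then 5 of 18 and C/EBPα at 4 and then 3, and none had JUNB in either condition, beside 0.457% and 0.274% of all protein-coding genes. Fosb carried both, with C/EBPα at 15.11 and 24.05 and IRF8 at 3.07 and 9.94.

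**Figure D5:**
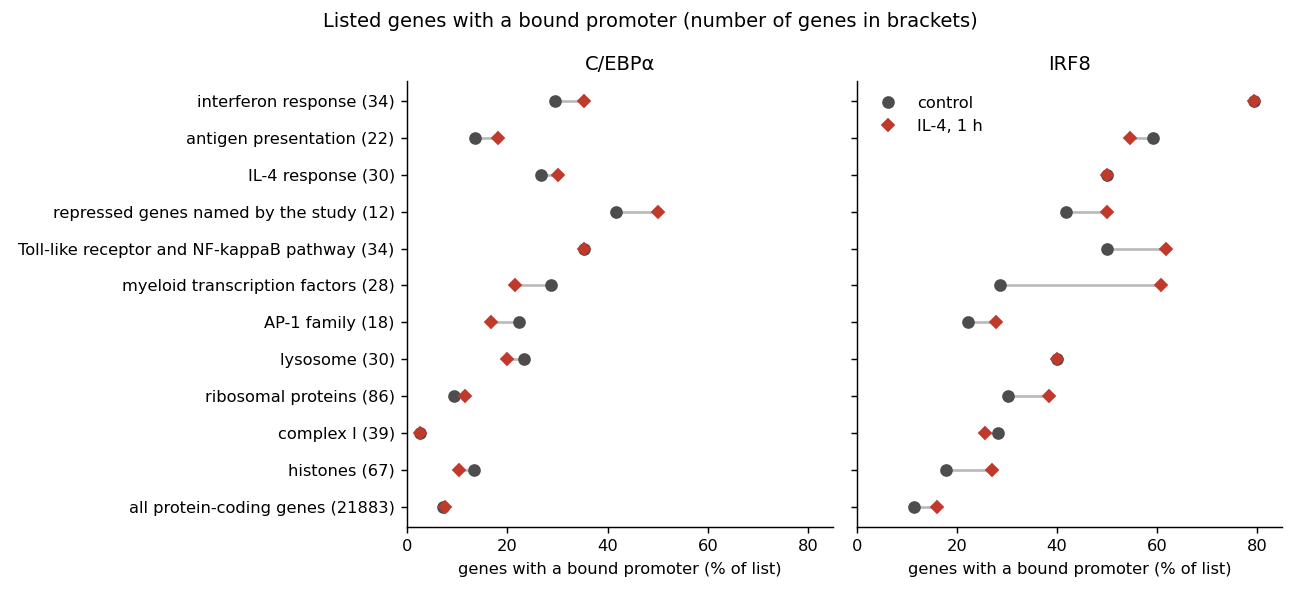
Share of the genes of each list with a bound promoter, counted by overlap (horizontal axis, percent of the list, number of genes in brackets) for C/EBPα and IRF8 in control (grey circles) and after 1 h of IL-4 (red diamonds). Myeloid transcription factors show the widest IRF8 gap, from 28.6% (15.3 to 47.1) to 60.7% (42.4 to 76.4), intervals that meet. Interferon genes stand at 79.4% in both conditions.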

How the data were processed

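ChIP-seq of C/EBPα, IRF8 and JUNB in BMDMs gave 1 peak list per factor and condition. Per the submitters' processing notes the authors used BWA 0.7.10, SAMtools 0.1.19, MACS2 2.0.10 and HOMER 4.2 on mm10. Per the study's methods, peaks were called with a q-value limit and blacklisted regions were removed. Peaks were called per sample. The control library is not given in the sources used here. The deposited Peak Score is a score without a stated unit that can move with sequencing depth, which is unknown. Start, end and the distance to the TSS, in bp, are the authors' values, and a start may be off by 1 bp.

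Promoter peaks are those the authors' annotation calls promoter-TSS. A peak was shared when it overlapped a peak of the other condition by at least 1 bp. Score ratios used one-to-one pairs, largest overlap first. Genes were named from the deposited Entrez IDs, of which 10224 of 10243 were in the RefSeq table. No peak ended past its chromosome (0 of 134964), and 99.5% of promoter peaks had a GENCODE TSS within 1000 bp. A gene was gained or lost where the promoter peak of one condition overlapped no peak of that factor in the other, a count chosen after seeing the data. A gene's score is that of its highest promoter peak, and scores were compared between conditions only where these peaks overlap. Sequence was read in the 200 bp around each centre. With 1 sample per group, no test was run.

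The members, gene lists and rules were chosen with earlier results of these data known. Named were, per factor, the 4 highest shared, IL-4-only and control-only promoter peaks, the 3 largest score ratios each way among pairs reaching 10, the first 8 genes bound by all factors, and up to 4 genes per list, by highest score, that 2 or more factors bound or at which 2 or more were gained or lost. One item that this rule names is not reported here. The lists were interferon response, antigen presentation, IL-4 response, genes the study names as repressed, Toll-like receptor and NF-κB, myeloid transcription factors, AP-1 family, lysosome, ribosomal proteins, complex I, histones and markers of 6 cell types. Python 3.11.15, pandas 2.3.3, numpy 2.4.6, scipy 1.17.1, pysam 0.24.0 and bedtools 2.31.1 were used, and 11 of 11 checks on simulated peaks were met. Alternatives changed the overlap, the score minimum, the promoter definition, the length of the lists, the score scale and the unit of co-binding.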

Additional observations from a re-analysis of the deposited data

Results flagged for a closer look

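The number of promoter peaks differed in opposite directions between factors. IRF8 had 1.42 times as many promoter peaks after IL-4 as in control (3856 against 2719), and JUNB 0.591 times as many (65 against 110). The difference between the factors was not tested, since each had 1 sample per condition. Outside promoters the ratios were 1.10 for IRF8 and 0.590 for JUNB, so for JUNB the promoter ratio was close to that of its other peaks. C/EBPα had ratios of 1.07 at promoters and 1.00 elsewhere.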

How the results depend on the processing

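Each value was recomputed under the alternative settings that were run for it. Of the recomputed values 79 stayed within their interval, 35 moved beyond it and 1 reversed. The gene list shares make up a large part of the 79. They were recomputed under 1 setting only, chosen after seeing the data, and not with a score minimum or lists of equal number. All values that moved or reversed came from the other results, so the 79 overstates how stable those were. No paired analysis was possible because each group had 1 sample and the labels carry no replicate numbers, and for the same reason no sample could be left out. Depth is unknown and limits every count of weak peaks. The causes of the shifts were not tested, beyond the construction of each alternative.

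With peaks scoring 10 or more, the promoter share of C/EBPα was 5.91% in control and 6.46% after IL-4. That of IRF8 was 5.21% (4.91 to 5.54) and 6.04% (5.72 to 6.37), so its higher share after IL-4 was still seen. That of JUNB was 1.21% and 0.917%. Control promoter peaks kept after IL-4 were then 86.3%, 84.2% and 6.25% for C/EBPα, IRF8 and JUNB (77.6%, 75.7% and 25.5% without the minimum), and new ones 22.6%, 34.2% and 75%. The JUNB values rest on few peaks, with intervals of 1.11 to 28.3 (kept) and 30.1 to 95.4 (new). C/EBPα genes with IRF8 were 30.5% in control and 32.8% after IL-4, with intervals of 27.4 to 33.8 and 29.7 to 36 that meet, so the higher share after IL-4 was not seen there. JUNB genes with both others were 37.5% (18.5 to 61.4) and 100% (51.0 to 100), which rest on few genes.

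With peaks within 500 bp of the TSS the promoter share of C/EBPα was 5.89% and 6.25%, that of IRF8 after IL-4 9.74% and that of JUNB in control 2.28%, and new IRF8 promoter peaks were 51.5%. With 50% overlap of both peaks, C/EBPα kept 72.1% with 32.8% new, and IRF8 kept 60.4% with 58.0% new. With lists of equal number, IRF8 after IL-4 had a promoter share of 8.65%, kept 71.9% and had 41.4% new. JUNB control had a promoter share of 1.85%, and JUNB had 81.5% new. C/EBPα genes with IRF8 after IL-4 were 49.3%, with an interval that meets that of control, so the higher share was not seen there either, and JUNB genes with both others in control 62.8%. By peak overlap in place of gene, C/EBPα with IRF8 was 42.6% and 47.8%. With scores divided by each list's median, the log2 ratio was 0.39 for IRF8 and 0.05 for JUNB, which turned the direction of JUNB from -0.29, and both JUNB intervals hold 0. Counting a gene as bound also where its promoter peak of the other condition overlaps a peak annotated elsewhere, chosen after seeing the data, kept every list share of C/EBPα and IRF8 within its interval.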
